A study of Mus musculus with 27 samples.

Results

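The primitive streak and tailbud genes are the 8 transcription factor genes T, Mixl1, Eomes, Tbx6, Evx1, Cdx1, Cdx2 and Cdx4. They were taken by name, as the rows of the RNA-Seq table whose gene identifier is one of these symbols, and all 8 were found among the 24065 genes of the table. The study profiled DNA methylation and gene expression in mouse embryos, and the expression data compare wild-type (WT) embryos with embryos that lack DNMT3B, one of the enzymes that places new methyl groups on DNA after implantation. RNA-Seq was run on whole embryos of the C57BL/6J strain at embryonic day 8.5 (E8.5), with 3 WT embryos and 3 Dnmt3b-/- littermates and 1 library per embryo. The Dnmt3b-/- embryos carry catalytically inactive alleles in every cell, made by crossing a conditional Dnmt3b line with the ACTB-Cre deleter line, and came from matings of heterozygous mice. The control embryos carry no stated deletion or treatment. The comparison asks how transcript levels differ in embryos without active DNMT3B.

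At gastrulation, epiblast cells enter the primitive streak and leave it as mesoderm and endoderm, and the remnant of the streak becomes the tailbud, where the trunk is extended from head to tail. Wnt and FGF signals keep T and the Cdx genes on in this region, and Nodal signalling drives Eomes and Mixl1 in the early streak. By E8.5 the early streak genes are normally fading, whereas T, Tbx6, Evx1 and the Cdx genes mark the posterior end of the embryo. Because whole embryos were ground up together, fewer cells of a type and less RNA per cell cannot be told apart.

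T and Evx1 were chosen for display after their values were seen, because their ratio did not overlap between the genotypes. The same holds for 45.4% of ratios between any pair of tested genes. A link between the ratio and promoter sequence was not tested. The 250 bases before their transcription starts are shown, with each CpG, the dinucleotide that DNA methyltransferases act on, in capitals. Both are from RefSeq on GRCm38.p6 (mm10), plus strand, 5′ to 3′. The T stretch lies at chr17:8434173-8434422 and the Evx1 stretch at chr6:52313248-52313497.

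T: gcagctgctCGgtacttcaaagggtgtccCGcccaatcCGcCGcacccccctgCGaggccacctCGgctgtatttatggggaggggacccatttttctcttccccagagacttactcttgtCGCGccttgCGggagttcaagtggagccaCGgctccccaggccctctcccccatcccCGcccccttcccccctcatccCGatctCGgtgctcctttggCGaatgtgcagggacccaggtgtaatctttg

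Evx1: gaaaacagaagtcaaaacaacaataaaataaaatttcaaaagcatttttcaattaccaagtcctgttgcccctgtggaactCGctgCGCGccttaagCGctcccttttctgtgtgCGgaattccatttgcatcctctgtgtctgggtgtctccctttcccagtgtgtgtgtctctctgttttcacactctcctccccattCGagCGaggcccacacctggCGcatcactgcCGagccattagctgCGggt

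The printed T stretch holds 14 CpGs and that of Evx1 holds 10. Promoter sequence of 300 bases, from 250 before to 50 after the start, was at hand for 6 of the 8 genes, all but Mixl1 and Cdx1. Among 32851 promoters of this length the median was 7 CpGs and 52.7% GC. Cdx2 had 18 CpGs, T 17, Evx1 12, Eomes 10, Cdx4 8 and Tbx6 7, so that 5 of the 6 lay above the median and Tbx6 lay on it. GC content ran from 47.3% at Eomes and 48.7% at Evx1 to 61.7% at T. On both strands, the T-box core site TCACACCT was found in 1.28% of all promoters and in none of the 6, and the Tcf and Lef motif ATCAAAG in 3.73% and in none of the 6. The Cdx motif TTTATG was found in 11.9% of all promoters and in 1 of the 6, that of T. No methylation value is given here for these promoters.

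Libraries held 41489332 to 58470286 counts, and 15114 genes, whose counts averaged 10 or more, were tested, all 8 streak and tailbud genes among them. Levels are given below as normalized counts (counts scaled to a common library size) or, between genes, as FPKM (counts scaled to exon length and library size). The limit set by 3 counts was 2.37 to 3.49 normalized counts, so that only Eomes came close to it. Dnmt3b itself, whose row counts all its exons, had 6281 to 13959 normalized counts in WT and 4064 to 4741 in Dnmt3b-/- embryos, a fall (log2 fold change -1.04, SE 0.27, edgeR quasi-likelihood test with Benjamini-Hochberg adjustment, adjusted p = 0.0169). Y-linked genes were read in WT embryo 2 and in Dnmt3b-/- embryos 1 and 3, and Xist in the other embryos. WT embryo 2 stood apart from the other WT embryos. Its summed FPKM of 8 yolk sac endoderm markers was 1110, against 169 to 368 in the other WT embryos and 105 to 394 in the Dnmt3b-/- embryos. Its sum of 5 primitive erythroid markers was 394, against 1510 and 2230 in the other WT embryos and 496 to 1420 in the Dnmt3b-/- embryos.

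Of the 8 genes, Evx1 fell in Dnmt3b-/- embryos and no other passed the test. A call required both a fold change over 2 and an adjusted p under 0.05 in edgeR's quasi-likelihood test, with Benjamini-Hochberg adjustment over all tested genes. By this rule 1 of 8 was called lower, against 3.78% of all tested genes, and 0 of 8 called higher, against 2.12%. At an adjusted p below 0.05 alone the counts were the same, 1 lower and 0 higher, against 18.1% and 17.6% of all tested genes. Without adjustment edgeR also gave 0 higher at a p below 0.05, whereas at an adjusted p below 0.05 limma gave 0 higher and DESeq2 gave 1, which was T. The levels of 1 gene, again Evx1, did not overlap with all Dnmt3b-/- embryos lower, against 26.5% of tested genes, and 0 genes did so with all higher, against 25.3%. The median log2 fold change was -0.07 over the 8 genes and -0.03 over all tested genes. Of the shares set beside a background, only that called lower was above it, and it rests on 1 gene. The others were below theirs. With 8 genes these counts are not read as a result about the set, and the genes are described one by one.

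**Figure D1:**
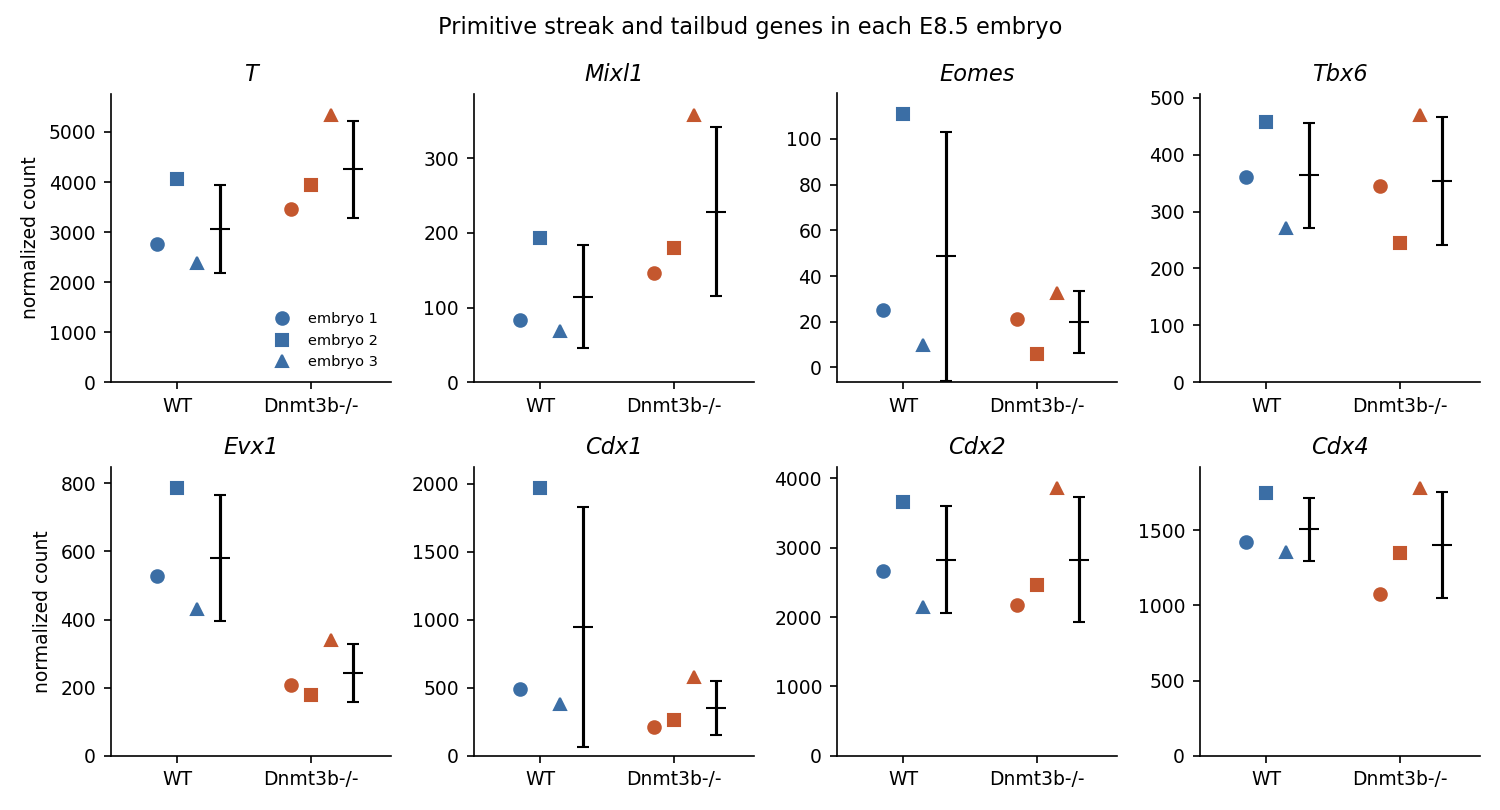
Normalized counts of the 8 genes, 1 panel per gene, on linear axes that include 0. Each point is 1 embryo (circle, square and triangle for embryos 1, 2 and 3; blue WT, orange Dnmt3b-/-), and the black bar gives the mean and SD of the 3 embryos. Only in the Evx1 panel do the blue and orange points not overlap, and the square of WT and the triangle of Dnmt3b-/- embryos are the highest of their genotype in every panel.

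T, or Brachyury, is the T-box factor of streak mesoderm, tailbud and notochord (chromosome 17, 8434423 to 8442496). It had 2765, 4059 and 2372 normalized counts in WT embryos 1, 2 and 3, and 3470, 3947 and 5342 in Dnmt3b-/- embryos 1, 2 and 3. The groups overlapped through WT embryo 2, which was higher than Dnmt3b-/- embryos 1 and 2, while the other WT embryos were below all Dnmt3b-/- embryos. On the log2 scale the fitted change in Dnmt3b-/- against WT embryos was 0.47 (SE 0.21, edgeR quasi-likelihood test with Benjamini-Hochberg adjustment, adjusted p = 0.122). Without WT embryo 2 it was 0.73 (SE 0.17, adjusted p = 0.0114 by edgeR), and DESeq2 on all 6 embryos gave 0.49 (adjusted p = 0.0445), so T passed the test in 2 of 16 fits. As each embryo was left out in turn, the fitted change ran from 0.29 to 0.73. It was lowest without Dnmt3b-/- embryo 3 (SE 0.22, adjusted p = 0.364 by edgeR). T is also a notochord gene, and the summed FPKM of 5 notochord and node markers (Noto, Shh, Foxj1, Chrd and Nog) was 8.04 to 8.52 in WT and 9.15 to 11.4 in Dnmt3b-/- embryos, with no overlap. The sum followed Shh, which rose (0.83, SE 0.19, adjusted p = 0.0118 by edgeR), whereas Chrd fell (-1.30, SE 0.44, adjusted p = 0.0489), 4 of the 5 had a log2 fold change below 0 and their median was -0.21. The part of the notochord in the T values was not tested.

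Eomes, the T-box factor of the early streak that opens the way to endoderm and the first mesoderm, was the least abundant of the 8 genes. It had 25.3, 111 and 9.70 normalized counts in WT embryos 1, 2 and 3 and 21.0, 5.82 and 32.8 in the Dnmt3b-/- embryos. WT embryo 2 was the highest by far, and the remaining embryos of the 2 genotypes overlapped. In FPKM the means were 0.273 ± 0.306 (SD, n = 3) in WT and 0.111 ± 0.0758 in Dnmt3b-/- embryos. The log2 fold change was -1.27 (SE 0.91, adjusted p = 0.312, edgeR with Benjamini-Hochberg adjustment) and turned to 0.18 (adjusted p = 0.887) without WT embryo 2. The raw counts behind these values ran from 5 to 97, and a difference was not detectable at this depth and spread. Eomes is also made in trophoblast. The summed FPKM of 9 trophoblast and extraembryonic ectoderm markers was 7.23 to 10.9 in WT and 7.74 to 16.9 in Dnmt3b-/- embryos. All 5 tested markers had a log2 fold change above 0 (median 0.54), and none passed the test. The placental genes Tpbpa and Prl3d1 were at or under 3 counts in every embryo.

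Tbx6, the T-box factor that holds cells to a paraxial mesoderm fate and away from a neural one, had nearly equal means. It had 361, 458 and 272 normalized counts in WT and 345, 245 and 470 in Dnmt3b-/- embryos. The groups overlapped throughout, with the lowest and the highest value both in the Dnmt3b-/- group. Its log2 fold change was -0.04 (SE 0.27, adjusted p = 0.926, edgeR with Benjamini-Hochberg adjustment), and it was above 0 in 4 of the 15 other fits, reaching 0.53 (adjusted p = 0.246) once the trend with GC content and length was taken out. Ppp4c, a phosphatase gene on the opposite strand 318 bases beyond the end of Tbx6, had 5880 to 6703 normalized counts in WT and 3387 to 4016 in Dnmt3b-/- embryos and fell by 0.78 on the log2 scale (SE 0.09, adjusted p = 0.000809 by edgeR). Ypel3, the neighbour before the start, had a log2 fold change of -0.17 (adjusted p = 0.609).

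Mixl1 encodes a paired-type homeodomain protein that acts in the streak in mesoderm and endoderm formation. Its normalized counts were 82.9, 193 and 67.9 in WT embryos 1, 2 and 3, and 147, 180 and 358 in Dnmt3b-/- embryos 1, 2 and 3. As for T, WT embryo 2 alone overlapped with the Dnmt3b-/- embryos, and WT embryos 1 and 3 were below all of them. Its log2 fold change was 1.00 (SE 0.47, adjusted p = 0.133, edgeR with Benjamini-Hochberg adjustment). Without WT embryo 2 it was 1.59 (SE 0.40, adjusted p = 0.016 by edgeR), the only 1 of 16 fits in which Mixl1 passed the test. Leaving out each embryo in turn moved it from 0.53 to 1.59. Lin9, a cell cycle gene that lies 2356 bases away on the other strand, was higher in Dnmt3b-/- embryos by 0.38 (SE 0.12, adjusted p = 0.044).

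Evx1, an even-skipped type homeodomain gene of the posterior streak and tailbud and later of spinal cord interneurons, fell in Dnmt3b-/- embryos. It had 527, 785 and 430 normalized counts in WT embryos and 207, 179 and 339 in Dnmt3b-/- embryos. Every Dnmt3b-/- embryo was below every WT embryo, with the closest values in Dnmt3b-/- embryo 3 and WT embryo 3. In FPKM the level was 4.20 ± 1.33 (SD, n = 3) in WT and 1.75 ± 0.618 in Dnmt3b-/- embryos. The log2 fold change was -1.26 (SE 0.30, adjusted p = 0.0123, edgeR quasi-likelihood test with Benjamini-Hochberg adjustment), and it passed the test in 13 of 16 fits. The call was lost when the trend of each library with exonic GC content and length was removed (-0.60, SE 0.34, adjusted p = 0.236). The exons of Evx1 are 61.2% GC, against a median of 50.3% over tested genes, and this correction took the calls over all genes from 571 lower and 320 higher to 132 lower and 308 higher. It was also lost without Dnmt3b-/- embryo 2 (-1.09, adjusted p = 0.0533), and without WT embryo 2 the change was -0.99 (adjusted p = 0.0219), just under a fold of 2.

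Evx1 (chromosome 6, 52313498 to 52318389, plus strand) overlaps by 1335 bases, at its start, with Evx1os, a long noncoding RNA on the opposite strand that the table lists as 5730457N03Rik. Evx1os had 739, 1259 and 666 normalized counts in WT and 638, 789 and 1156 in Dnmt3b-/- embryos, which overlap, and its log2 fold change was -0.04 (SE 0.28, adjusted p = 0.922, edgeR with Benjamini-Hochberg adjustment). The ratio of Evx1 to Evx1os counts was 0.713, 0.624 and 0.645 in WT and 0.324, 0.227 and 0.293 in Dnmt3b-/- embryos. These ratios did not overlap (two-sided exact permutation test, p = 0.1, the smallest that 3 against 3 embryos allow). The same holds for 45.4% of ratios between any pair of tested genes, and Evx1 alone already did not overlap. The library kit kept strand, but the strand setting of the counting is not given in the sources used here, so that reads in the shared stretch may have gone to either gene.

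Cdx1, Cdx2 and Cdx4 are the caudal-type homeodomain factors, which act together in axis extension and in the regulation of Hox genes. Cdx2, which is also a hindgut and trophoblast gene, had 2670, 3665 and 2146 normalized counts in WT and 2175, 2457 and 3857 in Dnmt3b-/- embryos. Cdx4 had 1423, 1746 and 1355 in WT and 1076, 1350 and 1780 in Dnmt3b-/- embryos. Both overlapped almost fully between the genotypes. The log2 fold change was 0.00 for Cdx2 (SE 0.24, adjusted p = 0.996) and -0.11 for Cdx4 (SE 0.19, adjusted p = 0.693, both by edgeR with Benjamini-Hochberg adjustment). The sign of Cdx2 turned in 7 of 15 other fits and that of Cdx4 in 2, with no call in any of them. With the GC and length trend removed, Cdx2 was 0.57 (SE 0.30, adjusted p = 0.202 by edgeR) and Cdx4 -0.20 (adjusted p = 0.48). Cdx4 lies on the X chromosome. It had 1350 to 1423 normalized counts in the 3 embryos with Xist and 1076 to 1780 in the 3 embryos with Y-linked transcripts. The 5 gut endoderm markers summed to 62.4 to 108 FPKM in WT and 69.6 to 76.4 in Dnmt3b-/- embryos. Most of the sum came from Cldn6 and Epcam. None of the 5 passed the test, with 3 below 0 and 2 above. Foxa1 (0.52, adjusted p = 0.0889) and Foxa3 (-1.39, adjusted p = 0.0775 by edgeR) went opposite ways.

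Cdx1, which answers to Wnt signals and retinoic acid, had 492, 1967 and 379 normalized counts in WT embryos 1, 2 and 3 and 211, 259 and 576 in Dnmt3b-/- embryos 1, 2 and 3. The groups overlapped through Dnmt3b-/- embryo 3, and WT embryo 2 was far above every other embryo. Its log2 fold change was -1.44 (SE 0.64, adjusted p = 0.114, edgeR with Benjamini-Hochberg adjustment), the farthest from 0 of the 8. It was -0.32 (SE 0.38, adjusted p = 0.551) without WT embryo 2, and ran from -1.996 to -0.32 as each embryo was left out in turn. As in Evx1, the exons are rich in GC (62.1%), and with the GC and length trend removed the value was -0.75 (adjusted p = 0.455). Slc6a7, 4446 bases away on the same strand, was near its detection limit, at 14.1 to 19.5 normalized counts in WT and 4.0 to 13.6 in Dnmt3b-/- embryos (log2 fold change -1.05, adjusted p = 0.22).

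The shares of the 3 genes within the Cdx family are a description, since 3 against 3 embryos cannot pass a threshold of 0.05 and 45.4% of ratios between any pair of tested genes do not overlap between the genotypes. Cdx1 made up 11.6%, 28.6% and 10.49% of the summed Cdx FPKM in WT embryos 1, 2 and 3, and 6.66%, 6.93% and 10.2% in Dnmt3b-/- embryos. Cdx2 made up 51.5%, 43.5% and 48.4% in WT and 56.1%, 53.5% and 55.4% in Dnmt3b-/- embryos. Neither share overlapped between genotypes, although those of Cdx1 came within less than 1 percentage point of each other in WT embryo 3 and Dnmt3b-/- embryo 3. The Cdx4 share was 27.9% to 41.1% in WT and 34.4% to 39.5% in Dnmt3b-/- embryos and overlapped. The sum of all 3 overlapped too, at 43.1 to 81.8 FPKM in WT and 37.7 to 67.6 in Dnmt3b-/- embryos.

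**Figure D2:**
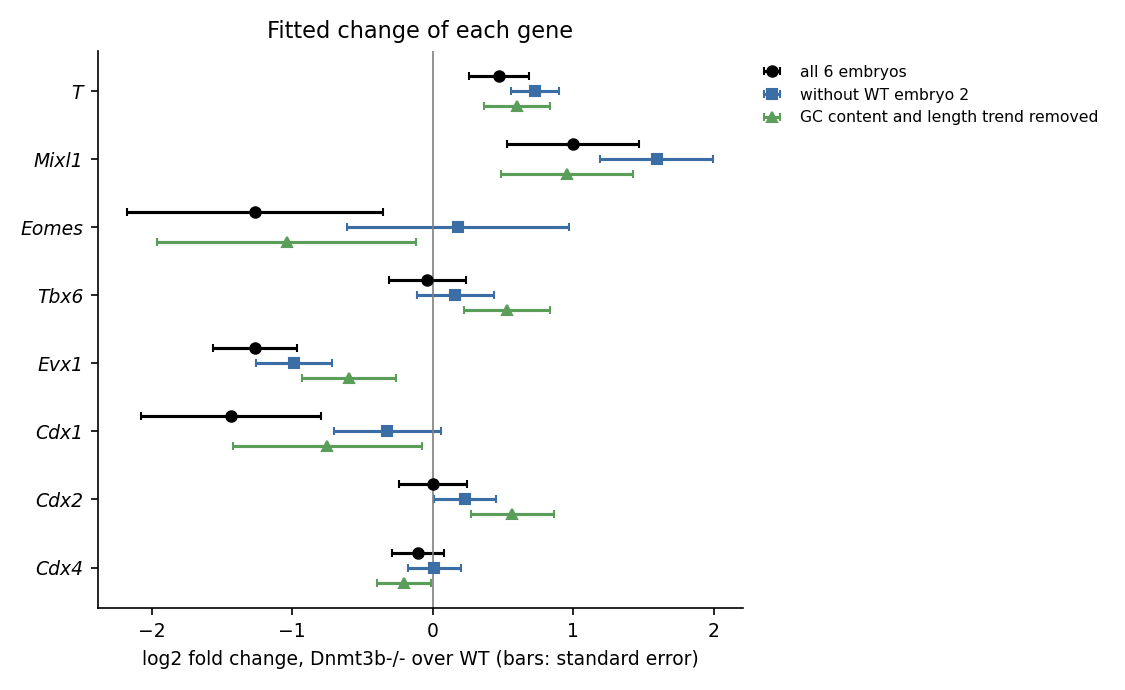
Fitted log2 fold change (Dnmt3b-/- over WT) of each gene with its standard error as the bar, for all 6 embryos (black circles), without WT embryo 2 (blue squares) and with the GC content and length trend removed (green triangles). Mixl1 moves from 1.00 to 1.59 and Eomes from -1.27 to 0.18 without WT embryo 2, and Evx1 from -1.26 to -0.60 with the trend removed.

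The 8 genes spanned a wide range of levels, which can be compared per length of exon. In WT embryos the order of mean FPKM was T (31.2 ± 8.99), Cdx2 (27.5 ± 7.5), Cdx4 (19.7 ± 2.73), Cdx1 (11.3, from 4.52 to 23.4), Tbx6 (4.42 ± 1.13), Evx1 (4.20 ± 1.33), Mixl1 (1.04 ± 0.623) and Eomes (0.273 ± 0.306), each with its SD over 3 embryos or its range. Of the 7 neighbouring pairs in that order, only Evx1 and Mixl1 had ranges that did not overlap. Among all genes of the table with an exon length, tested or not, T lay at the 90.3 percentile in WT embryos, Cdx2 at 89.1, Cdx4 at 85.1, Cdx1 at 77.9, Tbx6 at 65.2, Evx1 at 64.6, Mixl1 at 51.8 and Eomes at 42.5. In Dnmt3b-/- embryos T (43.3 ± 9.91), Cdx2 (27.5 ± 8.75) and Cdx4 (18.3 ± 4.63) again stood first. Next came Tbx6 (4.29 ± 1.37), Cdx1 (4.15 ± 2.36), Mixl1 (2.07 ± 1.03), Evx1 (1.75 ± 0.618) and Eomes (0.111 ± 0.0758). Here the ranges of Cdx4 and Tbx6 and those of Evx1 and Eomes did not overlap. Evx1 was above Mixl1 in 3 of 3 WT embryos and below it in 2 of 3 Dnmt3b-/- embryos.

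The spread within a genotype was wide for most of the genes, and it was shared. The coefficient of variation over WT embryos was 13.8% for Cdx4, 25.6% to 31.7% for T, Tbx6, Evx1 and Cdx2, 59.7% for Mixl1, 93.6% for Cdx1 and 112% for Eomes, against a median of 10.45% over all tested genes. In Dnmt3b-/- embryos it was 22.9% to 35.3% for T, Tbx6, Evx1, Cdx2 and Cdx4, 49.7% for Mixl1, 56.9% for Cdx1 and 68.0% for Eomes, against a median of 11.9%. All 8 genes were highest in WT embryo 2 among the WT embryos and all 8 in Dnmt3b-/- embryo 3 among the Dnmt3b-/- embryos. Over all tested genes these embryos were the highest for 35.9% and 38.2%, and both at once for 15.4%. Of 43 other streak and tailbud genes, 27 were highest in WT embryo 2 and 35 in Dnmt3b-/- embryo 3, and of 16 tested posterior Hox genes 3 and 9 were. WT embryo 2 and Dnmt3b-/- embryo 3 also had the lowest summed FPKM of primitive erythroid markers in their genotype (394 and 496, against 1080 to 2230 in the other 4 embryos) and both had Y-linked transcripts, as did Dnmt3b-/- embryo 1. In summed FPKM of yolk sac endoderm markers they were the highest (1110) and the lowest (105) of all embryos, and no posterior Hox gene was highest in both. The part of these in the levels of the 8 genes was not tested.

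**Figure D3:**
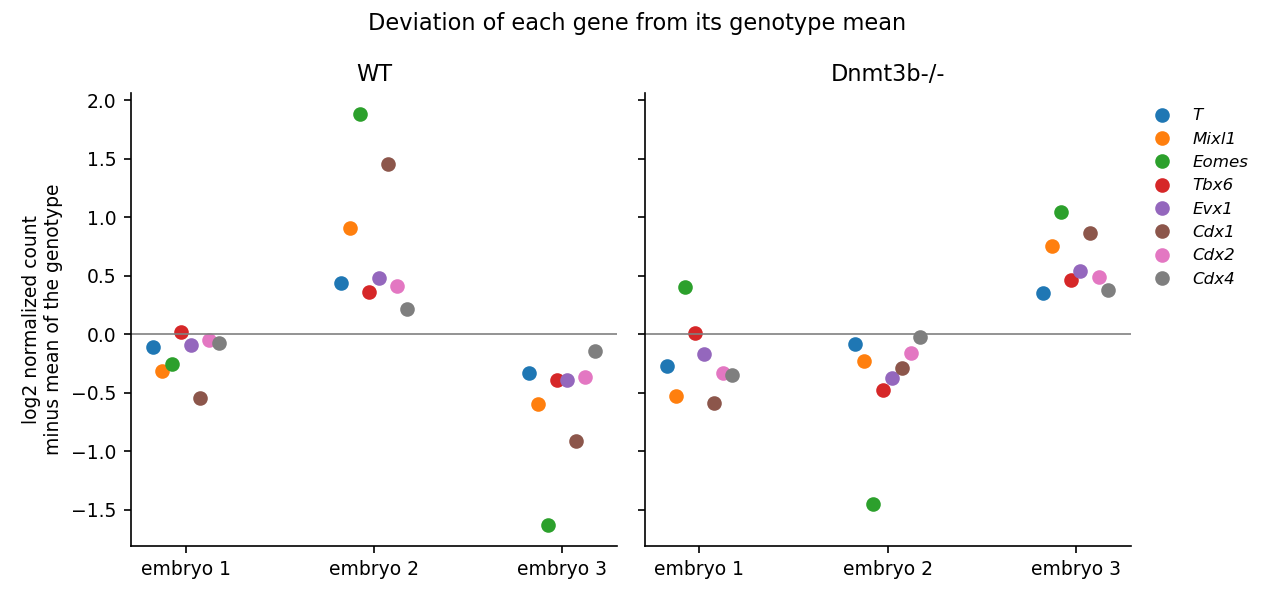
Log2 normalized count of each gene in each embryo minus the mean of its genotype, WT on the left and Dnmt3b-/- on the right, with 1 colour per gene. All 8 genes lie above 0 in WT embryo 2 (0.22 to 1.88) and in Dnmt3b-/- embryo 3 (0.35 to 1.05).

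Since the genes moved together from embryo to embryo, ratios of gene pairs within an embryo were also compared. The FPKM ratio of T to Evx1 was 7.38, 7.27 and 7.76 in WT embryos 1, 2 and 3 and 23.6, 31.0 and 22.2 in Dnmt3b-/- embryos. The WT values lay close together, WT embryo 2 included, and all Dnmt3b-/- values were well above them. The ratio of T to Cdx2 was 1.09, 1.16 and 1.16 in WT and 1.67, 1.68 and 1.45 in Dnmt3b-/- embryos. The ratio of Mixl1 to Evx1 was 0.197, 0.309 and 0.198 in WT and 0.891, 1.26 and 1.33 in Dnmt3b-/- embryos. In both ratios the Dnmt3b-/- embryos were again all higher. The ratio of Evx1 to Cdx2 was 0.147, 0.160 and 0.149 in WT and 0.0709, 0.0544 and 0.0655 in Dnmt3b-/- embryos, and that of Cdx1 to Cdx2 was 0.226, 0.658 and 0.217 against 0.119, 0.129 and 0.183. These were all lower in Dnmt3b-/- embryos. Tbx6 to Cdx2 (0.156 to 0.169 in WT, 0.125 to 0.198 in Dnmt3b-/- embryos) and Cdx2 to Cdx4 (1.18 to 1.56 and 1.35 to 1.61) overlapped.

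Each ratio that did not overlap had p = 0.1 in a two-sided exact permutation test over embryos, the smallest p that 3 against 3 allow, so that none could pass a threshold of 0.05. Of the 28 pairs among the 8 genes, 15 (53.6%) did not overlap, against 45.4% of all pairs of tested genes. The count is near the background, and the 28 ratios share 8 genes. On the log2 scale the T to Evx1 ratio was higher by 1.76 in Dnmt3b-/- embryos and the Mixl1 to Evx1 ratio by 2.31. A ratio shows that 2 genes changed unequally and not which of them moved. T has exons of 52.2% GC and Mixl1 of 48.5%, against 61.2% in Evx1, and the ratios were not corrected for it.

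**Figure D4:**
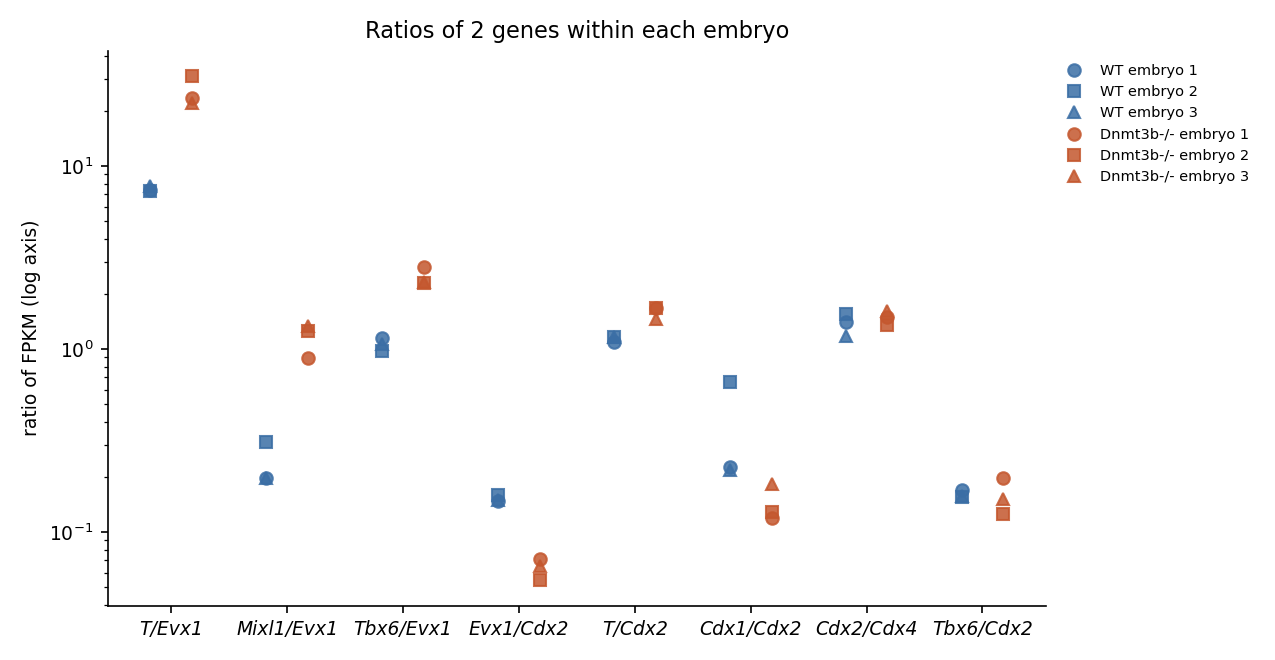
FPKM ratios of 8 gene pairs within each embryo on a log axis, with circle, square and triangle for embryos 1, 2 and 3 (blue WT, orange Dnmt3b-/-). T/Evx1 is 7.27 to 7.76 in WT and 22.2 to 31.0 in Dnmt3b-/- embryos, whereas Cdx2/Cdx4 and Tbx6/Cdx2 overlap.

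Likeness of pattern was measured as the root mean square difference of centred log2 normalized counts over the 6 embryos, among genes averaging 100 counts or more. Within the 8 genes Cdx2 and Cdx4 were the closest pair (0.15), followed by Tbx6 and Cdx2 (0.20) and T and Cdx2 (0.26), while Eomes and Mixl1 were the farthest apart (1.25). Of all genes, Fst (0.07) and En1 (0.10) were most like T, Apela (0.20) and Bhlhe41 (0.21) most like Mixl1, and Mia2 (0.57) and 2810459M11Rik (0.67) most like Eomes. Anxa11 (0.11) and Tmem241 (0.13) were most like Tbx6, and Tmem180 (0.18) and Lpin3 (0.22) most like Evx1. For the Cdx genes these were Foxh1 (0.36) and Gfra3 (0.38) for Cdx1, Etv4 (0.09) and Maff (0.09) for Cdx2, and Prdm1 (0.07) and Plgrkt (0.08) for Cdx4. The closest genes to Mixl1, Evx1, Cdx1 and Eomes were farther from them than Cdx2 was from Cdx4. The measure is not scaled to the spread of a gene, so genes with a wide spread tend to lie farther from all others.

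The other genes of the pathway were read as a list of 43 streak and tailbud genes, all of which were tested. Of these, 5 fell and 3 rose at an adjusted p below 0.05 (edgeR with Benjamini-Hochberg adjustment), against 18.1% and 17.6% of all tested genes, so that neither share was above the background, and the median log2 fold change was -0.27, against -0.03 over all tested genes. Wnt3a, the Wnt ligand of the tailbud, fell the most (-1.04, SE 0.23, adjusted p = 0.00907), from 518, 783 and 558 normalized counts in WT to 290, 380 and 232 in Dnmt3b-/- embryos. The ligands Wnt5a (-0.29) and Wnt5b (-0.37), the Wnt receptor Fzd10 (-0.51) and the Notch ligand Dll1 (-0.39) also fell. Tcf15, a factor of the early somite, rose (1.14, SE 0.23, adjusted p = 0.00601), as did Zic2, a zinc finger factor of the neural plate and posterior epiblast (1.04, SE 0.18, adjusted p = 0.00365), and Rspo3, which boosts Wnt signalling (0.60, SE 0.13, adjusted p = 0.00823). By role, 3 of 13 signals fell and 1 rose, 1 of 13 targets and co-regulators fell and 1 rose, and 1 of 9 presomitic genes fell and 1 rose. Differences between the roles were not tested. None of 8 early streak and node genes passed by edgeR, DESeq2 or limma, with 1 at an unadjusted p below 0.05 by edgeR. Sall4 (43.4 ± 8.86 FPKM, SD over 6 embryos) and Zic2 (26.9 ± 11.8) were the most abundant. The count of 5 was 1 with the GC and length trend removed, and 2, 3, 3 and 1 without WT embryo 1, WT embryo 3, Dnmt3b-/- embryo 1 and Dnmt3b-/- embryo 2.

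A few signals had a large excess in WT embryo 2. Lefty2, a Nodal antagonist, had 1517 normalized counts there and 10.3 to 25.6 in the other 5 embryos, and Wnt8a had 687 against 43.2 to 153. Nodal itself had 80.1 against 15.0 or fewer. These 3 genes were chosen after their values were seen, and none passed the test between genotypes (adjusted p = 0.066, 0.255 and 0.132 by edgeR).

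The posterior Hox genes, some of which are known targets of Cdx factors, were read from paralog groups 7 to 13. Of 21 genes, 16 were tested, and the counts of Hoxc11, Hoxc12, Hoxd12, Hoxb13 and Hoxc13 were too low. None fell, adjusted or not, by edgeR, DESeq2 or limma, and 6 of the 16 rose at an adjusted p below 0.05 (edgeR with Benjamini-Hochberg adjustment), against 17.6% of all tested genes, with a median log2 fold change of 0.59 over the 16. Hoxb8 (1.16, SE 0.37, adjusted p = 0.0388), Hoxd13 (1.07, SE 0.32, adjusted p = 0.0299) and Hoxb7 (0.90, SE 0.19, adjusted p = 0.00697) rose the most, and Hoxa9 (0.83), Hoxa7 (0.79) and Hoxc8 (0.62) rose too. Of these only Hoxb8 overlapped between the genotypes, with 389 normalized counts in WT embryo 1 and 347 in Dnmt3b-/- embryo 1. Among the 16, levels of 8 did not overlap with all Dnmt3b-/- embryos higher, against 25.3% of tested genes. Those of 1, Hoxd9 (-0.38, adjusted p = 0.147 by edgeR), did not overlap with all lower, against 26.5%. Hoxb9 (23.4 ± 5.15 FPKM, SD over 6 embryos) and Hoxc8 (16.5 ± 4.77) were the most abundant. The count of 6 was 2 without WT embryo 3, 3 without Dnmt3b-/- embryo 2 and 1 without Dnmt3b-/- embryo 3. No Cdx gene rose at an adjusted p below 0.05 in any of the 16 fits, though Cdx2 was 0.57 (adjusted p = 0.202 by edgeR) with the GC and length trend removed. The part of the Cdx genes in the Hox levels was not tested.

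**Figure D5:**
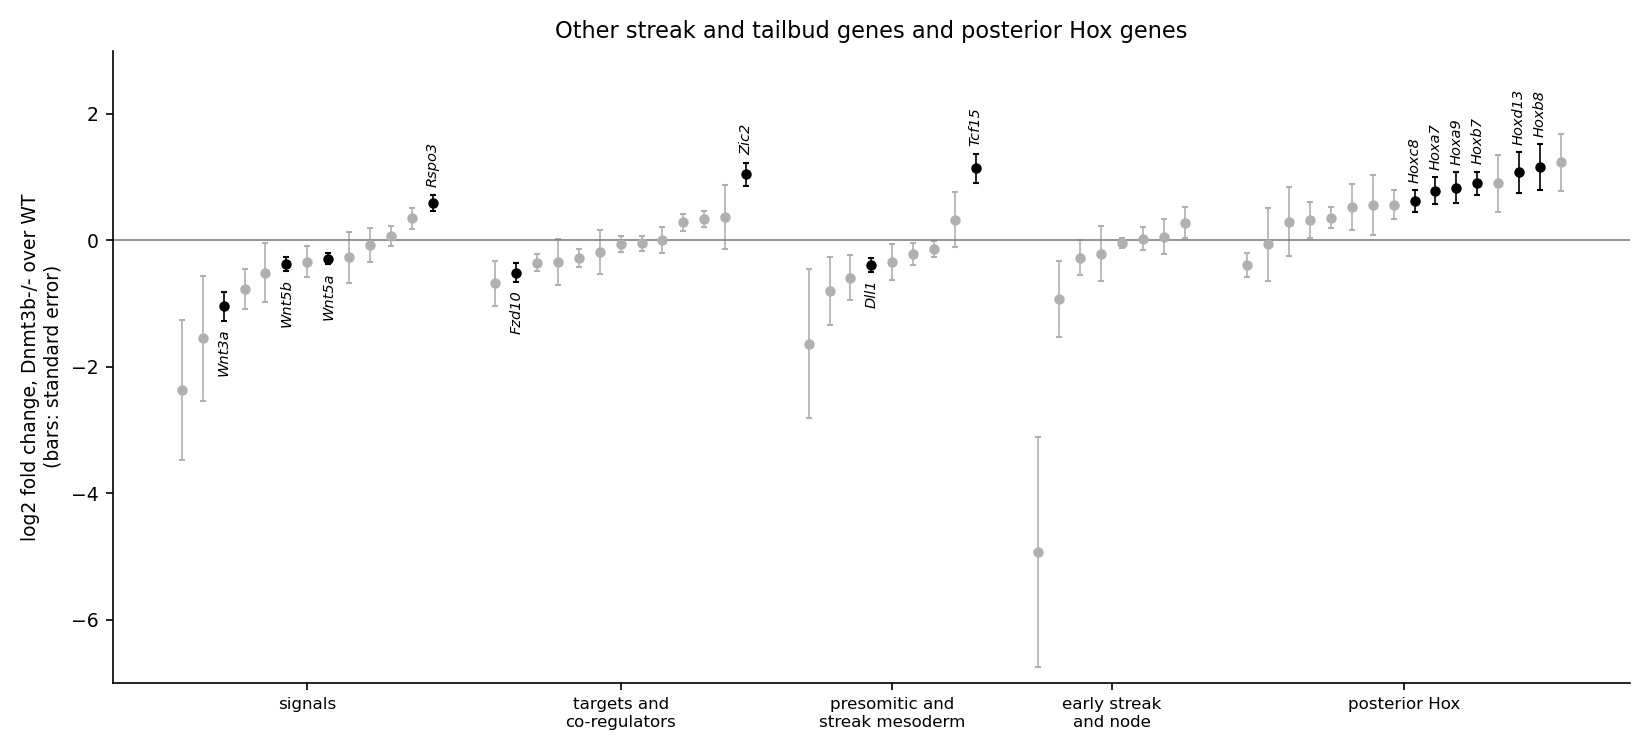
Fitted log2 fold change (Dnmt3b-/- over WT) with its standard error for the other streak and tailbud genes, by role, and the tested posterior Hox genes. Genes at an adjusted p below 0.05 are black and named, and the rest are grey. The 6 named Hox genes all lie above 0 and the named signals other than Rspo3 below 0.

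Markers of other tissues were read in the same way. Neural markers (Sox1, Pax6, Six3, Otx2 and En1) summed to 29.1 to 33.5 FPKM in WT and 35.8 to 50.7 in Dnmt3b-/- embryos, and 3 of the 5 rose at an adjusted p below 0.05 by edgeR, against 17.6% of all tested genes. Paraxial mesoderm markers summed to 33.2 to 47.4 and 42.0 to 46.4, allantois markers to 15.1 to 18.4 and 13.2 to 28.3, and cardiac markers to 251 to 398 and 209 to 337. These sums overlapped, but single markers passed the test by edgeR, with Vcam1 of the 4 allantois markers higher (1.11, adjusted p = 0.0382) and, of the 4 cardiac markers, Nkx2-5 lower (-0.79, adjusted p = 0.0149) and Tnnt2 higher (0.62, adjusted p = 0.0198). Of the 8 yolk sac endoderm markers 1, Amn, fell (adjusted p = 0.0429 by edgeR), against 18.1% of all tested genes. Amn had 418, 1545 and 158 normalized counts in WT and 221, 81.5 and 45.2 in Dnmt3b-/- embryos, which overlap. All 8 had a log2 fold change below 0, with a median of -1.20. Decidua markers, which would mark maternal tissue, summed to 10.7 to 18.8 and 13.7 to 20.0, mostly from genes the embryo also makes, and Prl8a2 was at or under 3 counts in every embryo. The part of these tissues in the values of the 8 genes was not tested.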

How the data were processed

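Total RNA from 3 WT and 3 Dnmt3b-/- E8.5 embryos was depleted of ribosomal RNA and sequenced from stranded libraries in pairs. The authors aligned reads to mm10 with TopHat2 2.0.12 and obtained counts over the exons of RefSeq genes from HTSeq 0.6.0. The deposited table holds raw counts, which were used here, and normalized counts (a signal, the raw count divided by a DESeq2 1.4.5 size factor by the authors), which were checked only. Its deposited log2 fold changes and adjusted p-values are the authors' own comparison and were not used. The RefSeq release and strand setting are not given in the sources used here. The 21 methylation samples of the series were not analysed here.

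Genes whose counts averaged 10 or more were tested with edgeR 4.0.16 (TMM, quasi-likelihood test, R 4.3.3), with Benjamini-Hochberg adjustment. The 3 embryos of a genotype are separate animals, but which litters they came from is not given in the labels. Normalized counts are counts over the TMM-scaled library size, times the mean library size. FPKM used the exonic length in RefSeq GRCm38.p6, to which 99.2% of genes matched by symbol or older symbol. Alternatives were DESeq2 1.42.0, limma 3.58.1 with trend (prior count 1), other filters and scalings, a replicate block, splines with 5 degrees of freedom on exonic GC content and length, and leaving out each embryo. The edgeR, DESeq2 and limma steps were tested on simulated data. Permutation tests were exact (scipy 1.17.1).

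The genes and lists were chosen with earlier results of these data known. Named were all 8 genes, list members with the 3 largest changes past the test in each direction and the 2 most abundant, the 2 genes most like each of the 8, neighbours within 5 kb that are in the table, and checks of genotype and sex. The few remaining list members past the test were named after their values were seen. Counting error alone limits a value of 3 counts or fewer.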

Additional observations from a re-analysis of the deposited data

How the results depend on the processing

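With 3 embryos per genotype, wide spread and 1 WT embryo apart from the rest, differences in most of the 8 genes were not detectable. Of the summary counts under the alternatives, 101 stayed within 1.5 times the main count and 21 did not. Genes called lower numbered 1, and 0 with the GC and length correction, with and without the replicate block, and 0 to 1 as each embryo was left out. At an adjusted p below 0.05 alone they numbered 0 under both corrections and 0 to 1 with embryos left out. Genes called higher numbered 0, and 0 to 1 with embryos left out. Those higher at an adjusted p below 0.05 numbered 1 by DESeq2 and 0 to 2 with embryos left out. The other streak and tailbud genes that fell numbered 5, and 3 with the replicate block, 1 with the GC and length correction, 2 with both, and 1 to 7 with embryos left out. The posterior Hox genes that rose numbered 6, and 3 with the GC and length correction and block, and 1 to 5 with embryos left out. Evx1 was not past the threshold at -0.60 (correction), -0.62 (correction and block) and -1.09 (without Dnmt3b-/- embryo 2). The sign turned for Eomes (0.18 without WT embryo 2, and -1.80 to 0.18 over the embryos left out), for Tbx6 (0.53 with the correction, 0.49 with correction and block, 0.16 without WT embryo 2 and 0.17 without Dnmt3b-/- embryo 2, from -0.29) and for Cdx4 (0.01 without WT embryo 2, 0.065 without Dnmt3b-/- embryo 1, from -0.30). Cdx2, near 0 in the main fit, turned without a filter (-0.01), with total counts (-0.081), limma (-0.009) or the block (-0.014). It also turned without WT embryo 1, WT embryo 3 or Dnmt3b-/- embryo 3 (-0.04, -0.16 and -0.27). Over the embryos left out Cdx2 reached 0.23, and it was 0.57 with the correction and 0.51 with correction and block. The cause was not tested. Same-numbered embryos did not deviate together (correlations of -0.05, -0.15 and -0.01 over genes). Pairs with unlike numbers gave -0.08 to 0.14. Such values can hide a small shared effect, so whether the numbers mark litters cannot be told from them. The replicate block took genes called from 571 lower and 320 higher to 516 and 265. Scaling to total counts gave 710 and 246.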
